A study of Mus musculus with 6 samples.

Results

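The genes analysed here encode the machinery that brings nuclear-encoded proteins into mitochondria, together with the CHCHD family of small mitochondrial proteins, and their RNA levels were compared in fully-grown oocytes (FGOs) that were still at the germinal vesicle (GV) stage, taken from wild type (WT) mice or from mice lacking Lsm14b (Lsm14b-KO). Members were taken by gene symbol: every symbol made of Timm, Tomm or Chchd and a number, with the letters that may follow it for Timm and Tomm, plus Samm50, Grpel1, Hspa9, Hspd1, Hspe1, Dnajc19 and Pmpcb. The set was chosen with earlier results of these data known. It holds 40 of the 24255 genes in the table. One of the 40, Tomm6os, is an antisense RNA and no import component. Some of the CHCHD genes, Chchd1 and Chchd10 among them, encode proteins that are imported and are not themselves known as part of the import machinery.

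LSM14B is an RNA-binding protein of oocytes. WT and Lsm14b-KO females were kept on a C57BL/6J background, and the KO females were homozygous for the knockout-first, reporter-tagged allele Lsm14b tm1a(KOMP)Mbp, which is present in every cell of the animal and not in the oocyte alone. All females received 5 IU of PMSG, a gonadotropin that makes follicles grow, and oocytes were collected 46 h later, from mice whose age the sources used here do not give. Each of the 3 WT and 3 Lsm14b-KO libraries was made from 20 pooled oocytes by Smart-seq2, which amplifies the RNA of a few cells. The labels do not say which libraries came from separate animals, so the p-values measure the spread between libraries, which may be technical. Levels are given as FPKM, the fragments of a gene scaled to its transcript length and to the fragments of its library. Whether the authors also scaled these levels between libraries is not given in the sources used here.

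Mitochondria make only a handful of their own proteins, and the rest enter from the cytosol. Precursors cross the outer membrane through the TOM complex. From there, those with a cleavable presequence pass the TIM23 complex, pulled by a motor around the chaperone mortalin, and are trimmed and folded in the matrix. Carrier proteins of the inner membrane are instead escorted by small Tim chaperones to the TIM22 complex, and small cysteine-rich proteins are trapped in the intermembrane space by a disulfide relay. Mouse oocytes hold a large stock of mitochondria, which the embryo inherits.

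The targeted gene was checked first. Here and in all that follows, values are given in the order of replicates 1, 2 and 3. Lsm14b stood at 2.77, 3.98 and 1.72 FPKM in WT and at 0, 0 and 0.102 FPKM in Lsm14b-KO, a fitted log2 difference of -1.85 ± 0.25 (SE, n = 3 per group; limma adjusted p = 0.00380). All 10 oocyte markers examined were present, with sums of 44390 to 56570 FPKM in WT and 30120 to 74830 FPKM in Lsm14b-KO libraries. Dppa3 made up most of each sum. With all libraries, 1 of the markers, Nobox, was called higher, as were 6.38% of all tested genes. Without Lsm14b-KO replicate 1, 6 of the 10 were called higher and none lower. Of all 6280 genes tested in that setting, 1152 were called higher and 1800 lower, 47.0% in either direction. Of 12 cumulus and granulosa cell markers, 5 were at 0 in every library, Amh, Foxl2 and Inhba among them, and the 12 summed to 9.73 to 13.6 FPKM in WT and 6.14 to 10.2 FPKM in Lsm14b-KO libraries. Cyp19a1, the aromatase gene, was the highest of the 12 in every library and was lower in Lsm14b-KO. It measured 11.5, 8.26 and 10.5 FPKM in WT and 5.47, 3.00 and 5.76 FPKM in Lsm14b-KO (limma adjusted p = 0.0426). The other tested markers of this list, Fshr and Inha, had log2 differences of 0.73 and 0.38 (limma adjusted p = 0.0923 and 0.301). Fshr was called higher without WT replicate 1 and when every library was scaled to 1 total. The part of such cells in the results below was not tested. All 7 red blood cell markers were at 0. The table holds no counts, so depth was read from FPKM and would carry any scaling that the authors made between libraries. Relative depth, read from the step of the lowest FPKM values, was 1 to 1.14 in WT and 1.33, 1.95 and 2.17 in Lsm14b-KO, and the FPKM of a library summed to 1244182, 1171905 and 1141324 in WT but 1029728, 564671 and 676656 in Lsm14b-KO. FPKM therefore did not add up to the same total, and results that turn on this are also given after scaling every library to 1 total (TPM).

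In Lsm14b-KO FGOs the RNAs of 10 members fell and none rose. They were Tomm22 and Tomm7 of the outer membrane, Timm21, Timm17a and Grpel1 of the presequence route, Timm13, Timm10b and Timm8b among the small Tim chaperones, and Chchd1 and Chchd10 of the CHCHD family. Of the 40 members, 29 reached 1 FPKM in at least 1 library and were tested with limma on log2(FPKM + 1) beside all 6398 genes that did so. Among the 29, 10 had an adjusted p under 0.05, all lower in Lsm14b-KO (34.5%), whereas 15.2% of all tested genes were called lower, 6.38% were called higher and 21.6% were called in either direction. The median fitted log2 difference was -0.73 for the 29 and -0.08 for all tested genes, and 22 of the 29 lay below 0, as did 53.2% of all tested genes. After TPM scaling 17 of the 29 and 33.2% of all tested genes lay below 0. At an unadjusted p under 0.05, 14 members were lower and 2 higher, and 23.7% of all tested genes were lower and 15.6% higher. In 14 members each Lsm14b-KO library was below every WT library (48.3%), a pattern found in 26.0% of all tested genes. In 3 members, Chchd2, Chchd3 and Hspd1, each was above every WT library, a pattern found in 19.1% of all tested genes. In the remaining 12 the groups overlapped. A fall here means lower FPKM, which is scaled to the fragments of each library. The amount of RNA per oocyte was not measured. In bulk libraries fewer transcripts per oocyte and fewer oocytes carrying them cannot be told apart.

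**Figure D1:**
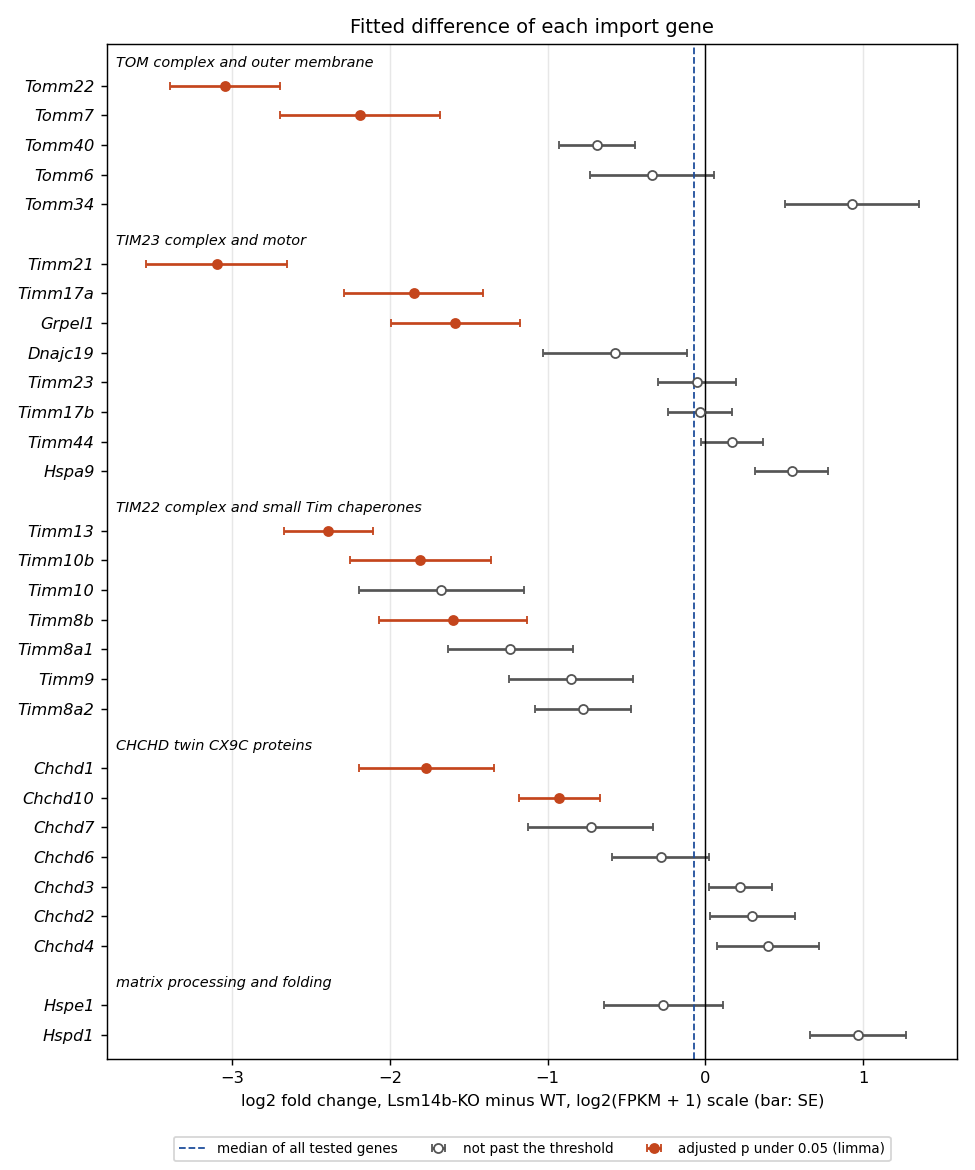
Fitted log2 difference (Lsm14b-KO minus WT, log2(FPKM + 1) scale) of the 29 tested import genes, grouped by role, with bars for the SE and a dashed line at the median of all tested genes. The 10 filled points, all left of 0, are the members with a limma adjusted p under 0.05. After TPM scaling 7 members were lower and 2 higher past that threshold, as were 486 and 833 of all 6398 tested genes.

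The size of this shift depended on the scaling, and its sign did not. TPM scaling moved the median of all tested genes by 0.47 on the log2 scale, quantile normalization by 0.14 and a correction for transcript length and GC content by 0.18. Against the median of all genes in the same setting, the members' median stood at -0.65 for FPKM as deposited, -0.56 after TPM scaling, -0.52 after quantile normalization and -0.37 after the length and GC correction. Of the 29 tested members, those past the threshold were then 7 lower and 2 higher, 7 lower and 1 higher, and 8 lower and 2 higher in that order. Of all 6398 tested genes, 486 were lower and 833 higher after TPM scaling. Quantile normalization gave 735 lower and 540 higher, and the length and GC correction 801 lower and 649 higher. Among all genes, calls were lower in 70.5% of cases for FPKM as deposited and in 36.9%, 57.7% and 55.2% of cases after the 3 scalings. Leaving out a library moved the count of members more than any scaling did. Without WT replicate 1, 2 or 3 it was 3, 3 and 4, without Lsm14b-KO replicate 2 or 3 it was 7 and 3, and without Lsm14b-KO replicate 1 it was 18, of which 15 were lower and 3 higher. The share of all tested genes called moved too, to 6.5%, 6.78%, 8.55%, 14.8%, 5.07% and 47.0% in the same order. The 10 members kept their direction in all 14 alternatives tried, and 3 of them, Timm21, Tomm22 and Timm13, kept their call in all 14.

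The 3 Lsm14b-KO libraries were not equally far from WT. Over the 29 tested members the median difference from the WT mean was -0.29 on the log2 scale in Lsm14b-KO replicate 1, -1.08 in replicate 2 and -0.76 in replicate 3. Replicate 1 was the Lsm14b-KO library nearest to the WT mean in 20 of the 29 members and in 9 of the 10 that fell. Replicate 2 was farthest in 20 of the 29 and in 9 of the 10. Relative depth and the FPKM sum, given above, also set replicate 1 nearer to WT than the other Lsm14b-KO libraries, and their part in this order was not tested.

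**Figure D2:**
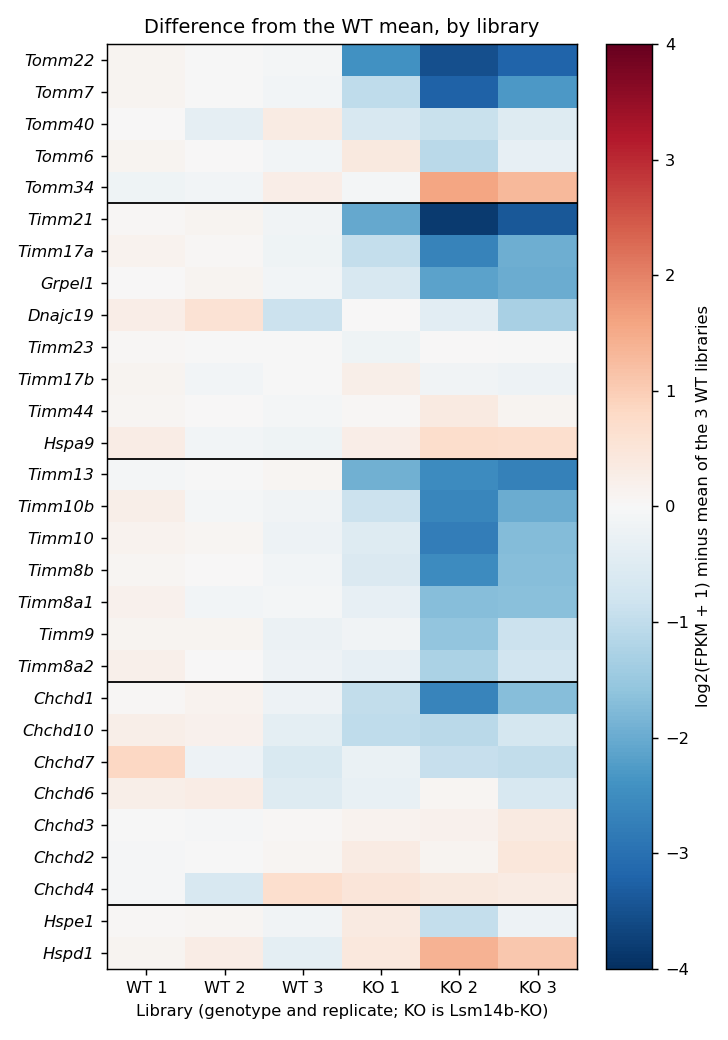
Difference of each import gene from the mean of the 3 WT libraries, on the log2(FPKM + 1) scale, with 1 column per library and lines between the roles. The blue cells in the Lsm14b-KO columns mark the members at lower FPKM, paler in replicate 1 (median difference -0.29) than in replicates 2 and 3 (-1.08 and -0.76).

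Promoter sequence of the members was also described. Its part in the differences between members was not tested. RefSeq entries (GRCm38.p6) were found for 34 of the 40 members, and not for Chchd2, Chchd7, Hspa9, Timm21, Tomm40l and Tomm7. Within 250 bases before and 50 bases after each start, 3 motifs were searched on both strands. The heat shock element TTCNNGAA was found in 8 member genes (Hspd1, Hspe1, Timm10, Timm13, Timm8a2, Timm9, Tomm20 and Tomm22) and in 8.52% of 32851 promoters. The core CCGGAAG of ETS factors was found in 14 member genes, Tomm22, Timm8b, Timm10b, Timm23 and Hspe1 among them, and in 8.86% of all promoters. The NRF1 core GCGCNTGCG was found in Chchd4, Hspd1, Timm13, Timm50, Timm8b and Tomm20, and in 6.31% of all promoters. A match is a string of letters and not a bound site. Each of the 3 occurred both in members that fell and in members that did not pass the test.

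The stretches of 4 genes are shown, read 5′ to 3′ toward the gene named: those of Tomm22 and Timm13, which kept their call in every alternative, that of Timm8b, the import RNA with the highest mean level, and the stretch between the starts of Hspd1 and Hspe1, which lie head to head and did not pass the test. Capitals mark matches to the 3 motifs on either strand (a GCGCNTGCG match stands in Timm13). In Tomm22 and in Hspe1 a TTCNNGAA match lies within a longer run that also matches CCGGAAG, so the 2 motifs overlap there. Timm13 and Hspe1 hold a TTCNNGAA match that stands alone, and Timm8b a CCGGAAG match. Positions are chr15:79670618-79670867 (+ strand) for Tomm22, chr10:80900970-80901219 (- strand) for Timm13, chr9:50603651-50603900 (+ strand) for Timm8b and chr1:55087933-55088147 (+ strand) for Hspe1.
Tomm22: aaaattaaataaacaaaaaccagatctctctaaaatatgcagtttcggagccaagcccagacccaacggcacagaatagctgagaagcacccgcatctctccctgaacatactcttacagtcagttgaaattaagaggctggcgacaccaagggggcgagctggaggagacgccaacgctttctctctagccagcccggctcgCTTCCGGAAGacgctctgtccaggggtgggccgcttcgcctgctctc
Timm13: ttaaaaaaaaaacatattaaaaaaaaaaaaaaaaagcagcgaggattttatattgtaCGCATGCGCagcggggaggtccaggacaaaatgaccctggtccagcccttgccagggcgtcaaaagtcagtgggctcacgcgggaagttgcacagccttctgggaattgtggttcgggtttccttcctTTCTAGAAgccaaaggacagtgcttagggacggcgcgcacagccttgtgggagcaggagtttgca
Timm8b: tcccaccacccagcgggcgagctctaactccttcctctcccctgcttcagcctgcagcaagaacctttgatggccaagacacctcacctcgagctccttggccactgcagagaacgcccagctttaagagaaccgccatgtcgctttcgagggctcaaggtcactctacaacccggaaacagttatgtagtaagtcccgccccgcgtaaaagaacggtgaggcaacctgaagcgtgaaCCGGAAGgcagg
Hspe1: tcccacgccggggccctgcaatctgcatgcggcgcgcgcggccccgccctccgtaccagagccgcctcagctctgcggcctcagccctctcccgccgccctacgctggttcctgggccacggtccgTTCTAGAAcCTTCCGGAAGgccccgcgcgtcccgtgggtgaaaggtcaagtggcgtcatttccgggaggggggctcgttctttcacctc

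At the outer membrane, Tomm22 and Tomm7 fell and the channel gene Tomm40 did not pass the test. Tomm22 encodes the central receptor that holds the TOM complex together, and Tomm7 a small subunit of it. Tomm22 (chr15:79670861-79673400 on GRCm38) measured 532, 489 and 471 FPKM in WT and 91.5, 42.8 and 53.0 FPKM in Lsm14b-KO. The groups lay far apart, and in each library Tomm22 was the most abundant outer membrane member. Its fitted log2 difference was -3.05 ± 0.35 (SE, n = 3 per group; limma adjusted p = 0.00214). In rank it stood between 282 and 299 among all genes in WT libraries and between 641 and 776 in Lsm14b-KO libraries. Tomm7 (chr5:23838944-23844161) measured 42.6, 39.0 and 35.9 FPKM in WT and 18.6, 3.25 and 7.11 FPKM in Lsm14b-KO, with no overlap (log2 difference -2.19 ± 0.51, limma adjusted p = 0.0230). Its call was lost without WT replicate 1, 2 or 3 or without Lsm14b-KO replicate 3, with adjusted p of 0.0698 to 0.0944.

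Tomm40, the channel itself, measured 4.45, 3.20 and 5.78 FPKM in WT and 2.46, 1.89 and 2.74 FPKM in Lsm14b-KO. All 3 Lsm14b-KO values were the lower ones, but the log2 difference of -0.69 ± 0.24 missed the threshold (limma adjusted p = 0.0753). It passed without Lsm14b-KO replicate 1 (adjusted p = 0.0496), a setting in which 47.0% of all tested genes passed. Tomm6, another small subunit, had a log2 difference of -0.34 (adjusted p = 0.529) that turned to 0.34 after TPM scaling. Tomm34, a cytosolic co-chaperone that binds precursors, was at 3.96, 4.12 and 5.74 FPKM in WT and at 4.22, 15.5 and 12.7 FPKM in Lsm14b-KO. Replicate 1 lay inside the WT range, so the groups overlapped, and the log2 difference of 0.93 (adjusted p = 0.142) passed the threshold only when that library was left out (1.44, adjusted p = 0.00137). The other 7 outer membrane symbols stayed under 1 FPKM in every library and were not tested. Among them were the receptor genes Tomm20, at 0.320, 0.328 and 0.518 FPKM in WT and 0.804, 0.630 and 0.885 FPKM in Lsm14b-KO, and Tomm70a, at 0.216 FPKM at most. Samm50, the core of the machinery that inserts barrel proteins, reached 0.133 FPKM and Tomm5 reached 0.701 FPKM, while Tomm20l, Tomm40l and Tomm6os were listed at 0 throughout.

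**Figure D3:**
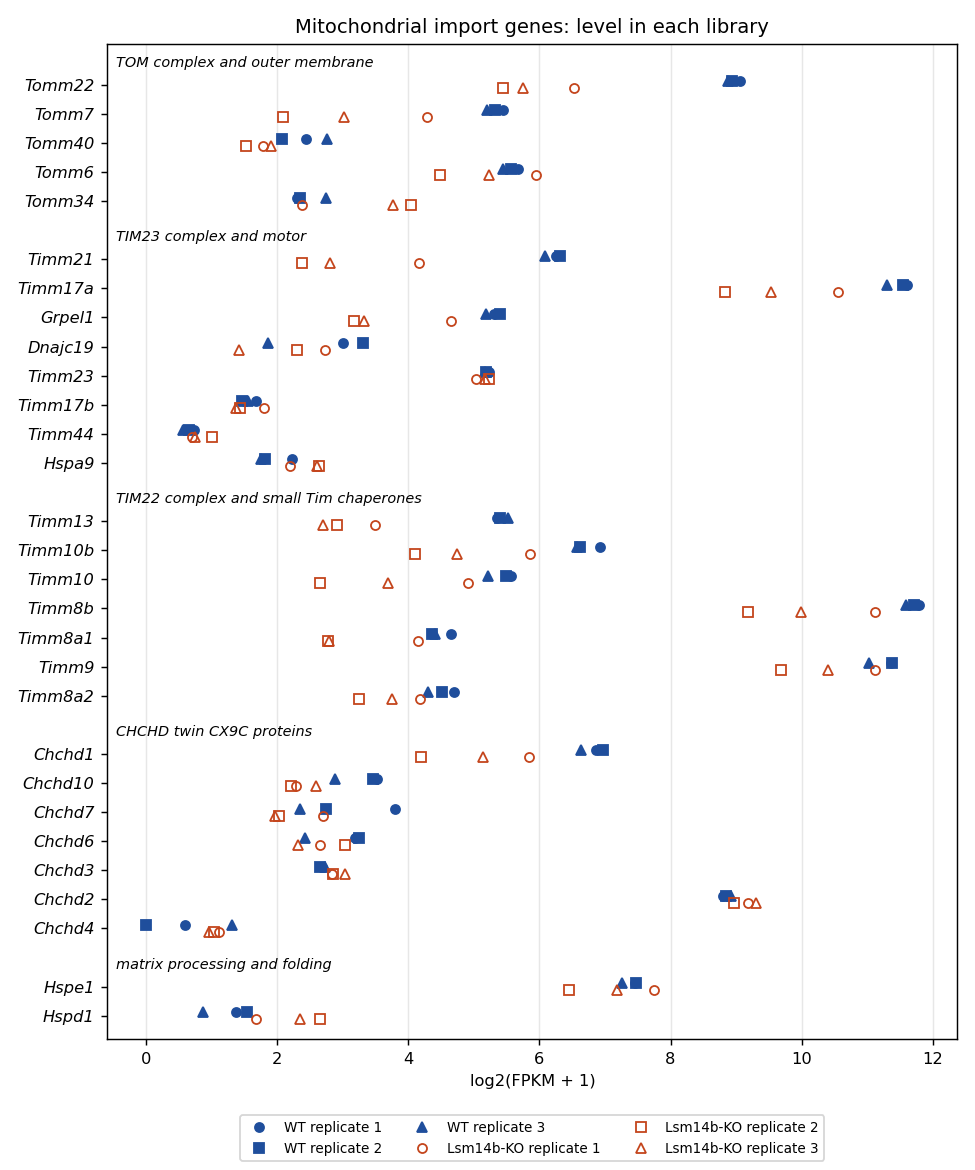
Level of each tested import gene, as log2(FPKM + 1), in each of the 3 WT (filled) and 3 Lsm14b-KO (open) libraries, grouped by role. The WT points of Tomm22, Timm21 and Timm13 lie to the right of all their Lsm14b-KO points, while those of Timm23 (35.0 to 36.7 FPKM in WT, 31.9 to 36.5 FPKM in Lsm14b-KO) overlap.

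In the presequence route, Timm21, Timm17a and Grpel1 fell, while the RNA of the pore protein itself, Timm23, did not pass the test. Timm21 encodes a subunit that docks TIM23 to the TOM complex. It measured 75.3, 78.6 and 66.8 FPKM in WT and 16.9, 4.20 and 6.04 FPKM in Lsm14b-KO. With a log2 difference of -3.10 ± 0.45 (SE; limma adjusted p = 0.00474), it had the lowest fitted value of the 29 members. Timm21 (chr18:84946191-84951524) is overlapped on the opposite strand by Fbxo15. Timm17a (chr1:135295213-135313778) encodes a structural subunit of the translocase and was the most abundant member of this route. Its values were 3129, 2987 and 2525 FPKM in WT and 1496, 453 and 741 FPKM in Lsm14b-KO, with no overlap (log2 difference -1.85 ± 0.44, limma adjusted p = 0.0248). Grpel1 (chr5:36464998-36474080), the nucleotide exchange factor that resets mortalin, measured 38.5, 41.3 and 35.5 FPKM in WT and 24.1, 8.0 and 9.02 FPKM in Lsm14b-KO (log2 difference -1.58 ± 0.41, limma adjusted p = 0.0308). Timm17a lost its call without WT replicate 1, 2 or 3 or without Lsm14b-KO replicate 3 (adjusted p of 0.0729 to 0.102), and Grpel1 also without Lsm14b-KO replicate 2 (0.0635 to 0.127). TPM scaling and quantile normalization ended the call of Grpel1 too (adjusted p = 0.0506 and 0.0604).

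Timm23, whose product lines the inner membrane channel, measured 36.7, 35.5 and 35.0 FPKM in WT and 31.9, 36.5 and 35.0 FPKM in Lsm14b-KO. The groups overlapped and the log2 difference was -0.05, with a 95% interval from -0.62 to 0.51 (limma adjusted p = 0.880), and it was 0.62, 0.44 and 0.47 after TPM scaling, quantile normalization and the length and GC correction. Timm23 has 6 near-identical genes, 5 of them pseudogenes, with which it may share reads. Timm17b, the other TIM17 paralog, was far less abundant than Timm17a, at 1.76 to 2.2 FPKM in WT and 1.60 to 2.47 FPKM in Lsm14b-KO, with a log2 difference of -0.03 (interval -0.50 to 0.43). Hspa9, which encodes mortalin, was at 3.71, 2.53 and 2.37 FPKM in WT and 3.60, 5.24 and 5.07 FPKM in Lsm14b-KO (log2 difference 0.55, adjusted p = 0.121). It passed the threshold without Lsm14b-KO replicate 1 (0.69, adjusted p = 0.0331), a setting in which 47.0% of all tested genes passed. Dnajc19, of the motor's co-chaperone family, and Timm44, which tethers mortalin to the channel, had log2 differences of -0.57 and 0.17 and overlapping groups. Timm50, the presequence receptor, stayed under 1 FPKM.

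Among the small Tim chaperones Timm13, Timm10b and Timm8b fell. All 7 tested members of this role were fitted below 0, as were 53.2% of all tested genes. Their median log2 difference was -1.60, although quantile normalization moved Timm9 to 0.0029. In 6 of the 7, Timm9 excepted, no Lsm14b-KO library reached the lowest WT value, a pattern found in 26.0% of all tested genes. Timm13 (chr10:80899450-80900969), the partner of the Timm8 proteins in the intermembrane space, measured 40.0, 41.4 and 44.8 FPKM in WT and 10.3, 6.52 and 5.54 FPKM in Lsm14b-KO, with a gap between the groups (log2 difference -2.39 ± 0.28, limma adjusted p = 0.00220). Timm10b (chr7:105640056-105643637), which sits on the TIM22 complex, measured 121, 97.1 and 94.7 FPKM in WT and 57.1, 16.3 and 25.7 FPKM in Lsm14b-KO (-1.81 ± 0.45, limma adjusted p = 0.0278). Timm8b (chr9:50603910-50605320) had the highest mean level of the 40 members, with 3531, 3349 and 3094 FPKM in WT and 2230, 579 and 1012 FPKM in Lsm14b-KO (-1.60 ± 0.47, limma adjusted p = 0.0462). In WT libraries it ranked 73 to 75 among all genes and in Lsm14b-KO libraries 87 to 144. The call of Timm10b was lost without WT replicate 1, 2 or 3 or without Lsm14b-KO replicate 3 (adjusted p of 0.0819 to 0.111). That of Timm8b was lost in these cases and without Lsm14b-KO replicate 2 (0.0735 to 0.150), and also after TPM scaling (adjusted p = 0.0504), quantile normalization (0.0673) and the length and GC correction (0.0532).

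Timm9 and Timm10, whose products form the hexameric chaperone for carrier proteins, differed in level and in fitted change. Timm9 measured 2644, 2655 and 2080 FPKM in WT and 2232, 820 and 1359 FPKM in Lsm14b-KO, so that Lsm14b-KO replicate 1 lay within the WT range (log2 difference -0.85 ± 0.39, limma adjusted p = 0.145). Timm10 measured 46.5, 44.0 and 36.4 FPKM in WT and 29.1, 5.27 and 11.99 FPKM in Lsm14b-KO, with no overlap (-1.68 ± 0.52, adjusted p = 0.0546). Timm8a1, whose human counterpart is the deafness-dystonia gene, and its relative Timm8a2 had log2 differences of -1.24 and -0.78 (adjusted p of 0.0579 and 0.101). Without Lsm14b-KO replicate 1 these 4 passed the threshold, with log2 differences of -1.21 for Timm9, -2.25 for Timm10, -1.69 for Timm8a1 and -1.01 for Timm8a2. In that setting 1800 of all 6280 tested genes were called lower and 1152 higher. Timm22, the carrier translocase itself, reached 0.319 FPKM at most and was not tested.

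A few RNAs made up most of the import transcript pool. Timm8b, Timm9 and Timm17a together held 82.1% to 83.6% of the summed FPKM of the 40 members in WT libraries and 82.4%, 69.3% and 74.4% in Lsm14b-KO libraries. The members summed to 11130, 10760 and 9378 FPKM in WT and to 7228, 2673 and 4182 FPKM in Lsm14b-KO. As a share of the library's FPKM, which no rescaling of whole libraries alters, this was 0.895%, 0.918% and 0.822% in WT and 0.702%, 0.473% and 0.618% in Lsm14b-KO. No Lsm14b-KO library reached the WT range on either measure.

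The CHCHD genes encode small proteins with paired cysteines that depend on the disulfide relay, and they were divided. Chchd1 (chr14:20703006-20704425), a subunit of the mitochondrial ribosome, measured 116, 125 and 98.5 FPKM in WT and 56.3, 17.3 and 34.2 FPKM in Lsm14b-KO (log2 difference -1.77 ± 0.43, limma adjusted p = 0.0259). Chchd10 (chr10:75933130-75937747), a protein of the intermembrane space, measured 10.5, 10.0 and 6.42 FPKM in WT and 3.87, 3.64 and 5.05 FPKM in Lsm14b-KO (-0.93 ± 0.26, limma adjusted p = 0.0386). In both, every Lsm14b-KO value was below every WT value. Leaving out any 1 WT library or Lsm14b-KO replicate 3 ended the call of Chchd1 (adjusted p of 0.0744 to 0.0982). Leaving out WT replicate 1 or 2 or Lsm14b-KO replicate 2 or 3 ended that of Chchd10 (0.0786 to 0.137), and so did TPM scaling, quantile normalization and the length and GC correction (adjusted p = 0.431, 0.0758 and 0.171).

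Chchd2, a paralog of Chchd10 and the most abundant CHCHD member, went the other way in level. It measured 444, 461 and 483 FPKM in WT and 579, 502 and 634 FPKM in Lsm14b-KO, with every Lsm14b-KO value above every WT value but a log2 difference of only 0.30 ± 0.27 (limma adjusted p = 0.422). After TPM scaling, quantile normalization and the length and GC correction the difference was 0.99, 1.12 and 0.86, and past the threshold each time (adjusted p = 0.0340, 0.0301 and 0.0238). Chchd2 has 3 near-identical genes, 2 of them pseudogenes. Chchd3 and Chchd6, of the cristae-organising MICOS complex, had log2 differences of 0.22 and -0.28, and Chchd4, the import receptor of the disulfide relay, 0.40, at 0.943 to 1.16 FPKM in Lsm14b-KO and 0 to 1.5 FPKM in WT. The adjusted p of Chchd6 was 0.499 and its sign turned after TPM scaling. Chchd7 measured 4.09 to 12.9 FPKM in WT and 2.93 to 5.49 FPKM in Lsm14b-KO (-0.73, adjusted p = 0.201), and Chchd5 stayed under 1 FPKM.

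Neither matrix chaperonin gene passed the test. Hspe1, the lid subunit, measured 174, 178 and 152 FPKM in WT and 215, 86.7 and 144 FPKM in Lsm14b-KO. Lsm14b-KO replicate 1 lay above all WT values and the other Lsm14b-KO libraries below them, and the log2 difference was -0.27 with a 95% interval from -1.14 to 0.60 (limma adjusted p = 0.609). Each of the 3 scalings made it positive, at 0.42, 0.34 and 0.42. Hspd1, the barrel subunit, measured 1.58, 1.92 and 0.825 FPKM in WT and 2.19, 5.31 and 4.08 FPKM in Lsm14b-KO, all above WT. Its log2 difference of 0.97 ± 0.30 missed the threshold (adjusted p = 0.0561) and passed it without Lsm14b-KO replicate 1 (1.24, adjusted p = 0.00463), after TPM scaling (1.49, adjusted p = 0.0482) and after the length and GC correction (0.98, adjusted p = 0.0495). Of all tested genes, 47.0%, 20.6% and 22.7% were called in these settings. Pmpcb, a subunit of the presequence protease, was above 0 in 1 library alone, at 0.659 FPKM.

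**Figure D4:**
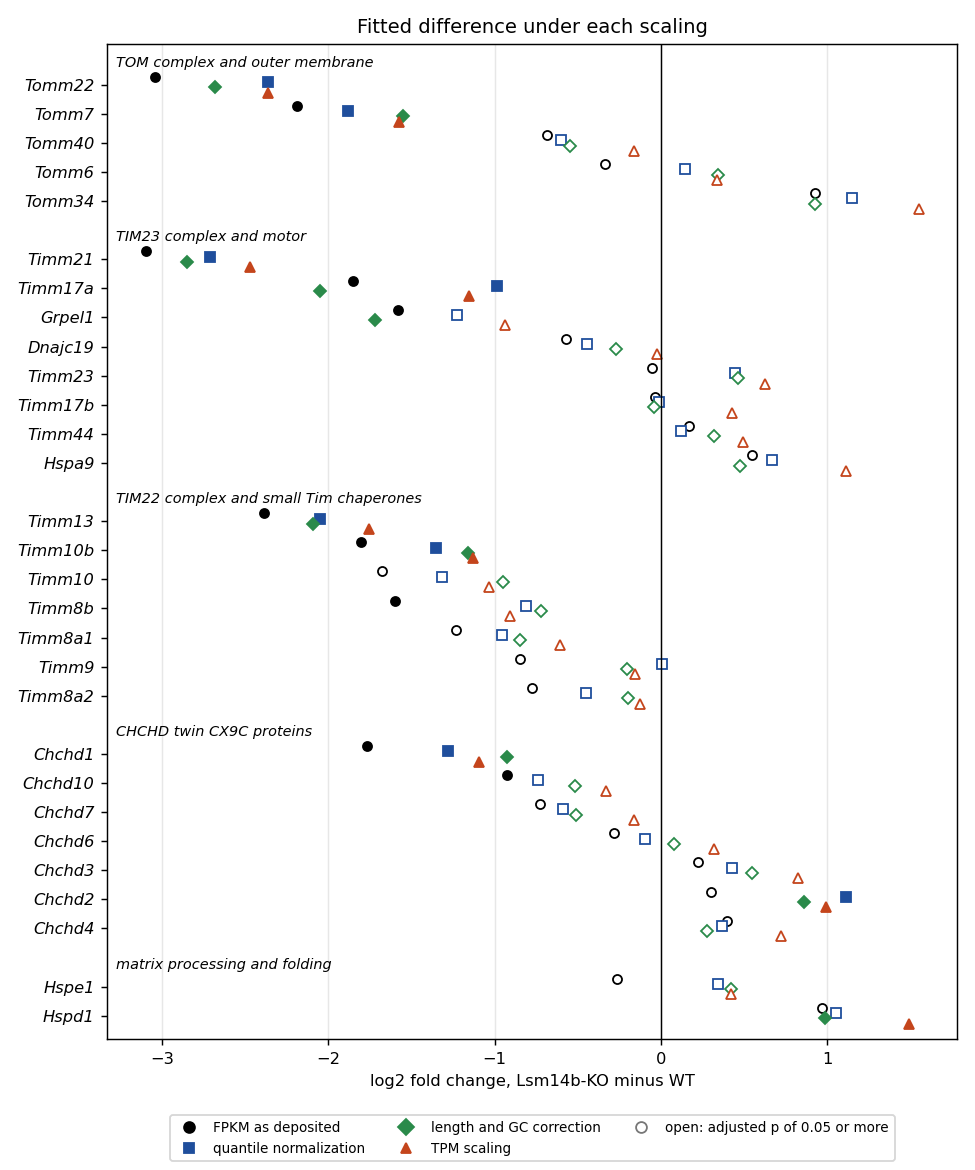
Fitted log2 difference (Lsm14b-KO minus WT) of each tested import gene for FPKM as deposited and after 3 other scalings, with filled symbols where the limma adjusted p was under 0.05. Tomm22, Tomm7, Timm21, Timm17a, Timm13, Timm10b and Chchd1 stayed filled and left of 0 in all 4, while Timm23, Tomm6 and Hspe1 changed side.

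Ratios of partner genes inside each library do not depend on how whole libraries are scaled. For this, 9 pairs were described, chosen after the levels had been seen, so that they carry no test. The ratio of Timm21 to Timm23 was 2.05, 2.21 and 1.91 in WT and 0.530, 0.115 and 0.173 in Lsm14b-KO, a difference of -3.23 in log2 ratio. The ratio of Timm17a to Timm23 was 85.2, 84.1 and 72.2 in WT and 46.9, 12.4 and 21.2 in Lsm14b-KO. For Tomm22 to Tomm40 it was 120, 153 and 81.5 in WT and 37.2, 22.7 and 19.3 in Lsm14b-KO. These 3 ratios were lower in every Lsm14b-KO library than in any WT library, as were those of Timm17a to Timm17b and of Grpel1 to Hspa9, with differences of -1.79 and -2.38 in log2 ratio.

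Among the small Tim chaperones the ratio of Timm9 to Timm10 was 56.9, 60.4 and 57.2 in WT and 76.7, 156 and 113 in Lsm14b-KO. The ratio of Timm8a1 to Timm13 was 0.604, 0.471 and 0.452 in WT and 1.63, 0.895 and 1.07 in Lsm14b-KO, and that of Timm8b to Timm13 was also higher in every Lsm14b-KO library, by 0.95 in log2 ratio. Hspe1 to Hspd1 overlapped, with 110, 92.8 and 184 in WT and 98.2, 16.3 and 35.3 in Lsm14b-KO. The groups did not overlap in the other 8 pairs, and how often ratios of other gene pairs separate in this way was not examined.

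Transcript length moved with the fitted difference across all genes. The median log2 difference was -0.70 for genes with annotated transcripts under 750 nt, -0.53 from 750 to 1000 nt, -0.42 from 1000 to 1500 nt, -0.10 from 1500 to 2500 nt, 0.17 from 2500 to 4000 nt and 0.30 above that. Many import RNAs are short. In the shortest class the 5 members, Timm8b, Chchd1, Timm10, Timm10b and Tomm6, had a median of -1.68, and in the classes up to 1000 nt and up to 1500 nt the members' medians were -0.78 and -1.24 (5 members each). Between 1500 and 2500 nt the 9 members had a median of -0.03, with Tomm22 and Timm21 as the called ones. After the length and GC correction Tomm22 stood at -2.68, Timm21 at -2.85 and Timm13 at -2.09, and Timm8b moved from -1.60 to -0.72. For 12 of the 40 members, Timm17a and Tomm22 among them, the annotated transcript reaches beyond the locus in the table, so the length the authors used may be shorter. For Timm17a, whose annotated transcript is 7280 nt long, the corrected value of -2.05 rests on that length.

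**Figure D5:**
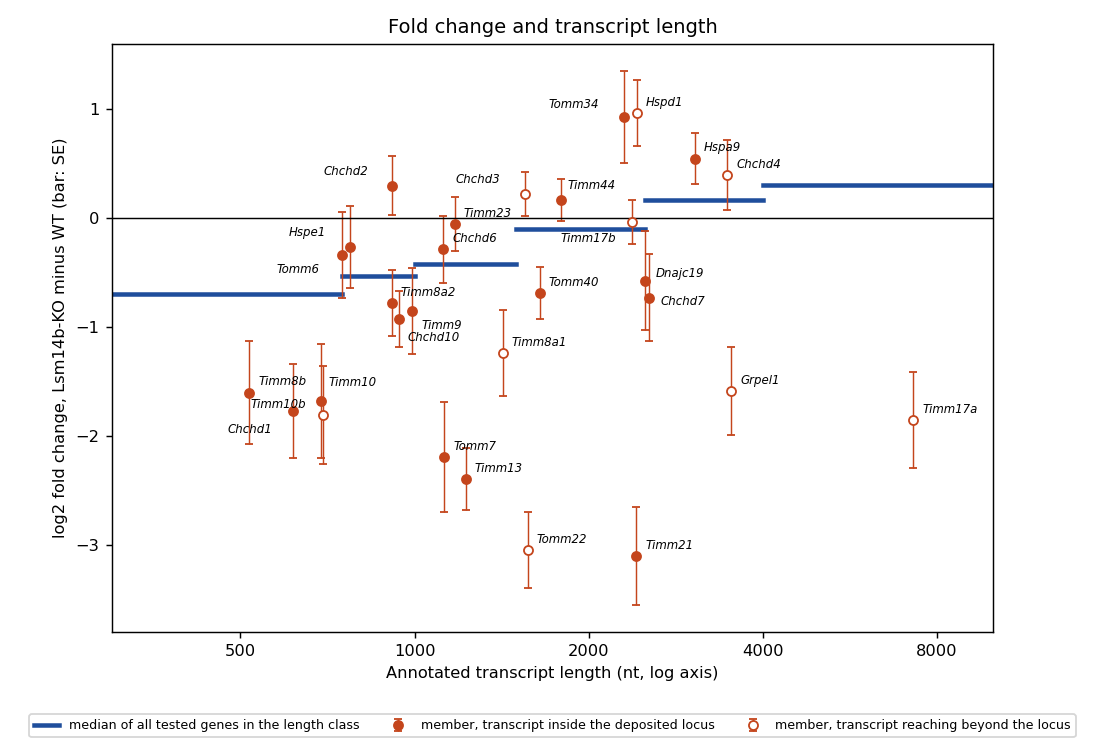
Fitted log2 difference (Lsm14b-KO minus WT, log2(FPKM + 1) scale, bars for the SE) of each tested import gene against annotated transcript length on a log axis, with open points where the transcript reaches beyond the locus in the table. Blue lines give the median of all tested genes in each length class, from -0.70 for the shortest to 0.30 for the longest, and Tomm22, Tomm7, Timm13 and Timm21 lie well below the line of their class.

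Neighbouring genes limit some of these values. Of the 10 members that fell, 7 are overlapped on the opposite strand by another annotated gene, which are Chchd1, Chchd10, Grpel1, Timm10b, Timm13, Timm21 and Timm8b. Whether the libraries kept strand is not given in the sources used here, so reads of such partners cannot be told apart. Tomm22, Tomm7 and Timm17a have no such overlap in the annotation, but the table gives Tomm7 a broad locus (chr5:23787742-24161231) that it shares with 6 other symbols, Klhl7, Fam126a and Rint1 among them. Timm8b shares its locus in the table with AU019823 and Pih1d2, and Timm9 with Tomm20l, which lies on the opposite strand. Timm21 shares its locus there with Fbxo15, Timm13 with Tmprss9, Grpel1 with Tada2b, Chchd1 with 6230400D17Rik and Chchd10 with Gm867. Near-identical copies were also found for Timm17a, Timm8a1, Dnajc19, Hspd1 and Hspe1 (1 gene each) and for Tomm20 (4 pseudogenes).

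Other genes of the import pathway were read from a list made by role. Of 36 symbols covering processing peptidases, sorting, the disulfide relay, further motor subunits, membrane insertion, MICOS and quality control proteases, 34 had a row and 26 were tested. Of these, 3 fell and none rose in limma, where 15.2% and 6.38% of all tested genes did so, and at an unadjusted p under 0.05 the counts were 4 lower and 2 higher, where 23.7% and 15.6% of all tested genes passed. The median log2 difference of the 26 was -0.28. Pam16, which regulates the motor, measured 25.3, 19.8 and 20.9 FPKM in WT and 13.6, 6.92 and 11.8 FPKM in Lsm14b-KO (-1.01 ± 0.30, limma adjusted p = 0.0480). Minos1, a core MICOS subunit, measured 16.7, 20.1 and 14.0 FPKM in WT and 7.64, 2.10 and 3.96 FPKM in Lsm14b-KO (-1.80 ± 0.38, limma adjusted p = 0.0165). The third, 2410015M20Rik, the MICOS gene now called Mic13, measured 17.8, 9.88 and 9.42 FPKM in WT and 3.84, 1.34 and 5.38 FPKM in Lsm14b-KO (-1.63 ± 0.41, limma adjusted p = 0.0295). In all 3 the groups did not overlap. Minos1 kept its call under the 3 scalings, Pam16 under none of them and 2410015M20Rik under quantile normalization alone, while TPM scaling called Grpel2, Mtx2 and Parl higher and the length and GC correction called Cox18 higher. Leaving out 1 library gave 0 to 8 called genes in this list. Without Lsm14b-KO replicate 1 the count was 8 of 25 tested, where 47.0% of all tested genes were called. It was 0 without WT replicate 1, WT replicate 2 or Lsm14b-KO replicate 3, where 6.5%, 6.78% and 5.07% of all tested genes were called.

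Genes of the integrated stress response, which can follow impaired import, were also read. Of 9 listed, 4 were tested and none passed the threshold in limma, with 2 higher and 0 lower at an unadjusted p under 0.05, a cut that 39.4% of all tested genes passed. Atf4, its main transcription factor, measured 2.58, 3.92 and 2.89 FPKM in WT and 4.33, 12.3 and 5.97 FPKM in Lsm14b-KO, all above WT (log2 difference 0.95 ± 0.35, adjusted p = 0.0849). Eif2ak1, a kinase that starts this response, was at 0.436 to 1.34 FPKM in WT and 2.10 to 2.95 FPKM in Lsm14b-KO (0.78 ± 0.25, adjusted p = 0.0582). Ddit3 and Ppp1r15a had log2 differences of -0.21 and -0.39 and overlapping groups. Eif2ak1 passed the threshold after TPM scaling. Without Lsm14b-KO replicate 1, Atf4 passed it as higher and Ddit3 as lower, in a setting where 47.0% of all tested genes passed.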

How the data were processed

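RNA-Seq of 3 WT and 3 Lsm14b-KO libraries of GV-stage FGOs was analysed. Groups and replicate numbers came from the sample titles. Per the submitters' processing notes and design text, 150 bp read pairs were trimmed and aligned to mm10 with TopHat2 (version 2.0.13), and the authors computed FPKM with Cufflinks (version 2.2.1). Cuffnorm and Cuffdiff are named as well, and it is not said whether Cuffnorm scaled the FPKM between libraries. The annotation is not given in the sources used here, and the labels name 2 library kits. The deposited table holds FPKM for each library and 3 columns of the authors' own comparison (log2 fold change, p-value and q-value), which were not used. It holds no counts, so FPKM steps gave depth in relative terms only.

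The deposited FPKM was transformed to log2(FPKM + 1). The 6398 genes that reached 1 FPKM in any library were fitted with limma 3.58.1 in R 4.3.3 (lmFit, eBayes with an intensity trend, genotype as the only term), with two-sided tests and Benjamini-Hochberg adjustment over all of them. Differences are Lsm14b-KO minus WT and understate the change of low genes. The members and lists were chosen with earlier results of these data known. Members with an adjusted p under 0.05, and the most abundant member of each role, were given in every library, and others by value or count. Lengths and overlaps came from GENCODE vM21 (GRCm38, the assembly of mm10), found for 6321 tested genes. Near-identical copies were sought with blastn 2.17.0 (95% identity over at least 200 nt). The fit was tested on simulated data. Alternatives were a pseudocount of 0.1, other filters, TPM scaling, quantile normalization, a loess correction for length and GC content, a replicate block, no intensity trend and leaving out each library.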

Additional observations from a re-analysis of the deposited data

How the results depend on the processing

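The 10 called members kept their direction in all 14 alternatives, and Timm21, Tomm22 and Timm13 kept their call. Without the filter on low values, where 14325 genes were tested, 3 members were called, all 3 lower, with a median log2 difference of -0.34, and 1 gene of the other pathway list and 720 of all genes were called. The members' median was -0.16 after TPM scaling and -0.27 after the length and GC correction. Members called higher numbered 2 after TPM scaling, 1 after quantile normalization and 2 after the length and GC correction. Of all 6398 tested genes, 833, 540 and 649 were called higher in the same order. TPM scaling also called 1 stress response gene. Leaving out 1 library gave 3 to 18 called members, 3 to 15 lower and 0 to 3 higher, 0 to 8 other pathway genes, 0 to 2 stress response genes and 321 to 2952 of all genes. The causes were not tested.

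Members that were not called changed sign as follows. After TPM scaling the log2 difference was 0.32 for Chchd6, 0.42 for Hspe1, 0.43 for Timm17b, 0.62 for Timm23 and 0.34 for Tomm6. After quantile normalization it was 0.34 for Hspe1, 0.44 for Timm23, 0.0029 for Timm9 and 0.15 for Tomm6. After the length and GC correction it was 0.076 for Chchd6, 0.42 for Hspe1, 0.47 for Timm23 and 0.34 for Tomm6. With 1 library left out, Timm17b ranged from -0.17 to 0.045 and was above 0 without WT replicate 1, Lsm14b-KO replicate 2 or Lsm14b-KO replicate 3. Hspe1 ranged from -0.58 to 0.072 and Tomm6 from -0.70 to 0.034, above 0 only without Lsm14b-KO replicate 2.

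Libraries with the same replicate number correlated at 0.19, -0.13 and 0.02 in their deviations from the group means. Deviations within a group are tied to each other, so these values cannot tell whether such libraries share a day or batch. With the replicate number as a block, 11 members were called, all lower, 1244 of all genes and 1 stress response gene. Chchd10 lost its call and Timm10 and Timm8a1 gained one. For the ratios, leaving out each library was chosen after the data had been seen and changed no direction. Depth is known in relative terms only, which limits what can be said of the 11 members under 1 FPKM.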
